A study of Mus musculus with 36 samples.

Results

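The heat shock and co-chaperone genes were described in RNA-seq of mouse brain cells. They are the protein-coding genes of the mm10 annotation whose symbols begin with Hspa, Hspb, Hspd, Hspe or Hsph and a digit, with Hsp90, or with Dnaja, Dnajb or Dnajc and a digit. The rule found 72 genes of the 25460 genes with a value, and 14 pseudogenes with such symbols were left out. The samples were 36 libraries from brain cells of C57/Bl6 mice, every one labelled as astrocyte. They covered 6 populations, called Neg, A, B, C, D and E, in each of 3 regions (olfactory bulb, cortex and brainstem), with 2 libraries in each of the 18 groups. The labels give no age, no treatment and no definition of Neg or of the letters, and the series text speaks of cell lines where the sample labels speak of mouse brain cells. Populations A to E are called the lettered populations below. Nothing in the labels tells whether both libraries of a group stem from different mice, and p-values then reflect only how far such libraries lie apart, possibly for technical reasons. The sample titles carry numbers of 2 series, a first in 21 libraries and a second in 15 (all of D and E, cortex A 2, brainstem A 2 and brainstem B 2), which the labels do not explain. Libraries of a group are numbered 1 and 2 in the order of their records, which pairs nothing across groups.

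Heat shock proteins are molecular chaperones, which bind unfolded stretches of other proteins and help them fold, refold or move between compartments. HSP70 proteins do this in cycles of ATP hydrolysis. DNAJ proteins deliver clients to HSP70 and stimulate its ATPase, and HSP90 finishes the folding of kinases, steroid receptors and other clients. Some members are made at all times, and others are induced by heat shock factor 1 when unfolded proteins accumulate. In brain tissue the enzymatic and mechanical dissociation that precedes cell sorting is known to raise the inducible genes together with immediate early genes. The endoplasmic reticulum has its own HSP70, BiP (Hspa5), and mitochondria have mortalin (Hspa9) and the Hspd1-Hspe1 chaperonin.

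Levels are FPKM, fragment numbers scaled by transcript length and by the mapped fragments of the library, summed over the transcripts of each gene, so levels of different genes can be set side by side. Each difference is one of log2(FPKM + 1), a scale that understates the change of low genes, and comes with its standard error. They were fitted with limma over the 13578 genes that reached 1 FPKM in 2 libraries, with 18 residual degrees of freedom. A gene was called at a Benjamini-Hochberg adjusted p below 0.05 over all those genes, two-sided. Library depth relative to each other ran from 1.17 to 4.08, except 0.316 in olfactory bulb E 1 and 0.0695 in brainstem E 1. Genes at 1 FPKM or more numbered 2104 to 10357 per library, and 8 libraries were under 5000. They were cortex Neg 2, brainstem Neg 1 and 2, cortex A 2, cortex D 2, olfactory bulb E 1 and brainstem E 1 and 2. The FPKM sum over nuclear genes ran from 24130 to 63081 in Neg, from 23005 to 70447 in E, from 109900 to 139690 in B and from 87398 to 163130 in C. It therefore differed between populations in the direction of most results below, and counts are given after rescaling too. Less RNA per cell and fewer cells of a type cannot be told apart in such bulk samples. Mean log2(FPKM + 1) of 10 astrocyte markers was 3.66 to 7.19 in the lettered populations and 1.39 to 3.73 in Neg, and the 8 oligodendrocyte markers were at 3.58 to 7.72 over all populations. The astrocyte label was thus borne out by markers least in Neg and next least in E, at 3.66 to 5.13. Median oligodendrocyte markers stood above median astrocyte markers in Neg (4.97 and 2.99), E (5.25 and 4.05) and D (5.48 and 5.12). Blood cell markers, 5 globin and erythroid genes, lay between 0.211 and 4.501. Brainstem D 2 and cortex E 2 carried 10 olfactory bulb genes at a mean log2(FPKM + 1) of 1.61 and 1.75, against 1.33 to 2.91 in the 12 olfactory bulb libraries and 0 to 0.970 in the 22 others.

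Of the 72 genes, 62 passed the filter. Dnajb3, Dnajb7, Dnajc25, Hspb2 and Hspb7 were above 0 in some library but under the filter, and Dnajb8, Dnajc22, Dnajc5b, Dnajc5g and Hspb9 were listed at 0 in all 36 libraries. By mean level over the libraries, 4 tested genes stood at 10 FPKM or more, 18 at 5 to under 10, 31 at 1 to under 5 and 9 under 1. The highest was Hsp90ab1, the constitutive cytosolic HSP90, at 70.8 FPKM. Hsp90b1 (GRP94), the HSP90 of the endoplasmic reticulum, followed at 54.8 FPKM, and Hspa5 at 24.8 FPKM. The fourth was Dnajb4, a cytosolic DNAJ protein, at 10.5 FPKM. The heat-inducible HSP70 genes Hspa1a and Hspa1b averaged 8.64 and 3.32 FPKM, the constitutive HSP70 gene Hspa8 (Hsc70) 6.71 FPKM and Dnajb1 (Hsp40), the inducible DNAJ partner of HSP70, 4.19 FPKM. Only Hsp90aa1, Hsp90ab1 and Hsp90b1 reached 1 FPKM in every library.

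Several members share sequence with other genes, which bears on how fragments were split between them. Hspa1a (chr17:34969190-34972156, minus strand) and Hspa1b (chr17:34956436-34959238, minus strand) have coding sequences of 1923 and 1926 bases that are 99.43% identical, with 8 mismatches and 3 gap bases. Of the 50-base windows of the longest Hspa1a transcript, 66.3% occur in another gene too, 58.8% in Hspa1b. The share was 62.3% for Hspa1b, 74.8% for Hspa8, 58.5% for Hsp90aa1 and 44.8% for each of Hspd1 and Hspe1. It was 51.7% for Hspb1, shared with the pseudogene Hsp25-ps1. The split of Hspa1a against Hspa1b is therefore uncertain, and their sum is given beside them. The share was 0% for Hspa5, Dnajb11, Dnajc3, Dnajb5, Dnajc1, Hspb6, Hspb8 and Hsph1, and 0.441% for Dnajb1. In all, 15 members shared more than 25% of their windows and 35 shared none.

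**Figure D1:**
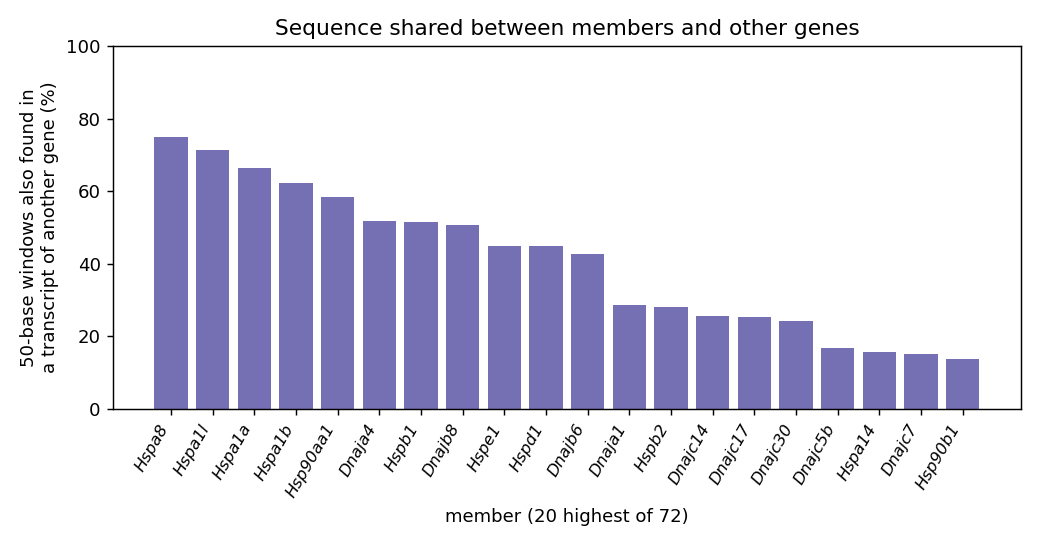
Bars give the share of each member's 50-base windows that also occur in a transcript of another gene (percent, vertical axis), for the 20 members with the highest shares. Hspa8, Hspa1l, Hspa1a and Hspa1b stand at 62.3% to 74.8%.

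Promoters were searched for the elements through which heat shock and stress of the endoplasmic reticulum are known to act. RefSeq promoters (GRCm38.p6) were found for 58 of the 72 genes, and the 250 bases before the start were searched on both strands. The heat shock element is built of GAA units in alternating orientation. A 3-unit element, which is GAANNTTC or TTCNNGAA lengthened by 2 bases and 1 more unit in alternation, occurred in 0.466% of 32851 promoters and in 3 members, Dnajb6, Hspd1 and Hspe1. The 2-unit form (GAANNTTC or TTCNNGAA), which every 3-unit match also contains, occurred in 12.8% of promoters, or 14.5% of genes. It was present in 14 members, or 24.1% of those matched, among them Hspa1a, Hspa1b, Hspb1, Hsph1, Dnaja1 and the endoplasmic reticulum gene Dnajc10. The endoplasmic reticulum stress element, which ATF6 binds together with NF-Y (CCAAT, any 9 bases and CCACG), occurred in 0.113% of promoters and in the 3 members Hspa5, Hsp90b1 and Dnajc3. Stretches of inducible and organelle genes described below are printed with the motif in capitals. Hspa1a (chr17:34972213-34972300, minus strand) and Hspa1b (chr17:34959295-34959382, minus strand) hold the same stretch, with the first base of the motif at -104 from the start, and their 250-base promoters differ at 3 positions. The other stretches are Hspe1 at chr1:55088054-55088081 (plus), which lies in the promoter window of the divergent Hspd1 as well, Hspa5 at chr2:34772020-34772048 (plus), Hsp90b1 at chr10:86705513-86705676 (minus) and Dnajc3 at chr14:118937787-118937885 (plus).
Hspa1a and Hspa1b: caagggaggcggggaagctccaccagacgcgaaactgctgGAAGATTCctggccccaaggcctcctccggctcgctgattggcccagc
Hspe1: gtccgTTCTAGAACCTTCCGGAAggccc
Hspa5: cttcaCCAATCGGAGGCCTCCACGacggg
Dnajc3: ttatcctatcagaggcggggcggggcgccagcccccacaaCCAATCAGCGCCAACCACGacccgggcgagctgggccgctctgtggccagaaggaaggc
Hsp90b1: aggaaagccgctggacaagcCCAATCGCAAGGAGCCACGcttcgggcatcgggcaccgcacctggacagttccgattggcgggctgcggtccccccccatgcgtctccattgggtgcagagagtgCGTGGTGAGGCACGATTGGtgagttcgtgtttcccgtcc
In Hsp90b1 the second capital run is the element on the opposite strand. The letters of the searched elements were not found in the windows of Dnajb1 (heat shock) or Dnajb11 (endoplasmic reticulum stress).

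The inducible genes were highest in B and lowest in Neg and E. Hspa1a stood in B at 30.8 and 12.01 FPKM in olfactory bulb, 19.1 and 16.3 in cortex and 57.8 and 14.0 in brainstem. In Neg it was 3.98 and 1.89 in olfactory bulb, 2.35 and 0.679 in cortex and 1.47 and 0.0439 in brainstem. In E it was 0.409 and 0.193 in olfactory bulb, 0 and 1.70 in cortex and 5.17 and 0 in brainstem. Every B library was thus above every Neg and E library. The populations between them spread widely. In A, Hspa1a was 2.92 and 14.5 FPKM in olfactory bulb, 4.97 and 0.294 in cortex and 5.25 and 7.68 in brainstem. In C it was 1.63 and 7.79, then 14.5 and 9.15, then 14.5 and 8.58, in the same order of regions. In D it was 6.16 and 24.2, then 5.04 and 0.0617, then 15.5 and 0.474. Medians ordered as B 17.7, C 8.87, D 5.60, A 5.11, Neg 1.68 and E 0.301 FPKM, and the ranges of A, C and D overlapped one another and that of B.

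**Figure D2:**
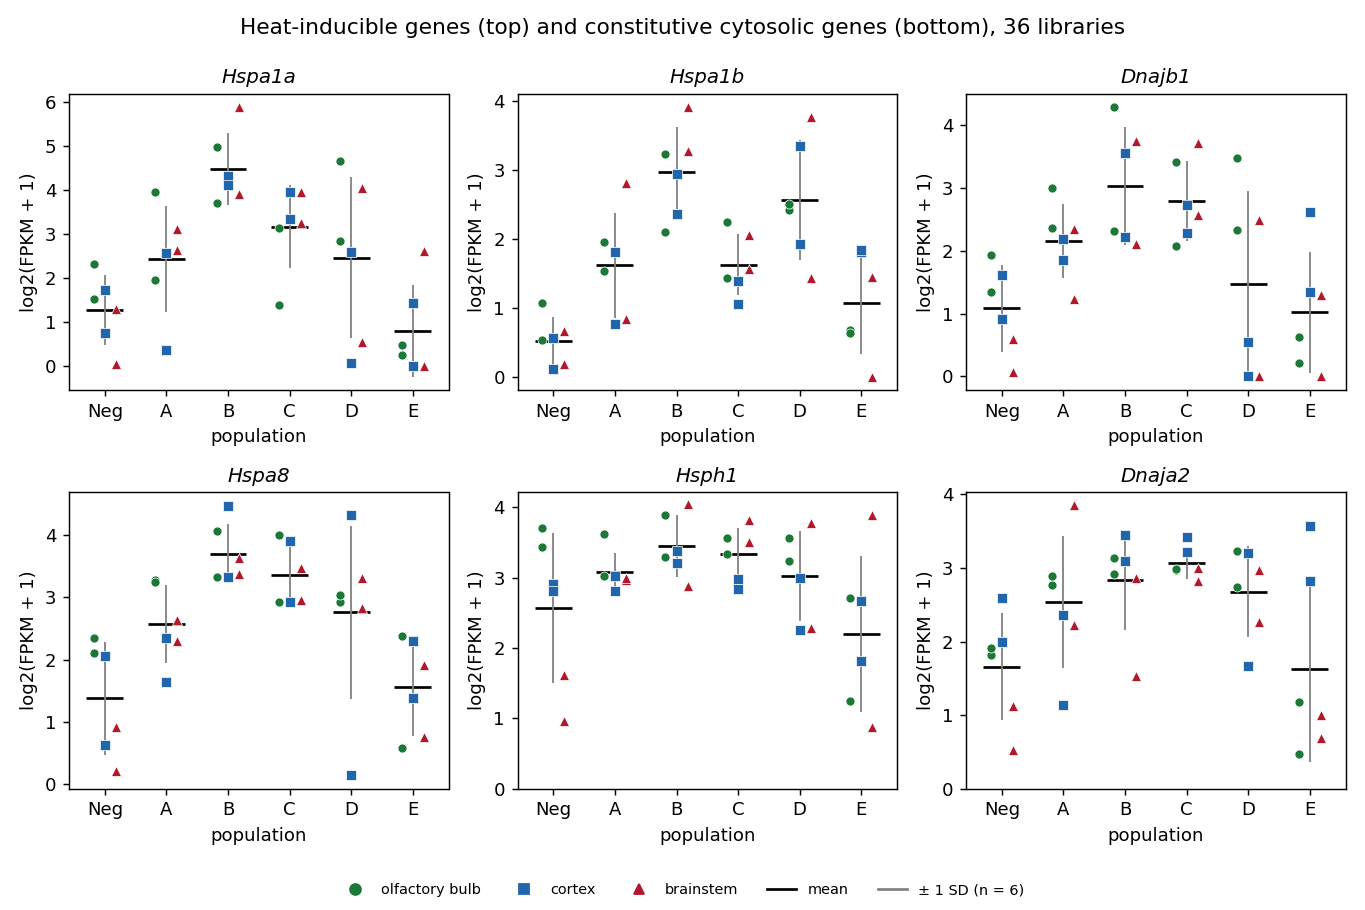
Points give log2(FPKM + 1) of the inducible Hspa1a, Hspa1b and Dnajb1 and the constitutive Hspa8, Hsph1 and Dnaja2 in each of the 36 libraries by population, with colour and shape for the region, a black line at the mean of the 6 libraries and grey bars of 1 SD. For Hspa1a all 6 B libraries, at 12.01 to 57.8 FPKM, lie above all Neg and E libraries.

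Hspa1b and Dnajb1 had their highest medians in B too, with more overlap and another order below it. Hspa1b was 8.44 and 3.29 FPKM in olfactory bulb B, 6.71 and 4.14 in cortex B and 14.0 and 8.64 in brainstem B, against at most 1.11 FPKM in Neg. Its D libraries, at 1.70 to 12.6 FPKM, reached into the B range. Hspa1b medians were 7.58 FPKM in B, 4.52 in D, 2.21 in A, 1.83 in C, 1.16 in E and 0.461 in Neg. Dnajb1 was 18.5 and 3.97 FPKM in olfactory bulb B, 10.8 and 3.66 in cortex B and 12.48 and 3.31 in brainstem B. In each region B thus held 1 high and 1 low library, and the low ones lay within the ranges of A and C. Dnajb1 medians were 7.37 FPKM in B, 5.27 in C, 3.82 in A, 2.26 in D, 1.22 in Neg and 0.997 in E, and neighbouring populations in that order overlapped.

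The lettered populations were compared with Neg to ask what sets them apart from it. In that comparison 21 of 62 members rose and 0 fell, where 20.2% of all genes tested rose and 0.14% fell. The median difference over the members was 0.77, against 0.50 over all genes. Among the inducible genes, Hspa1b rose by 1.45 ± 0.33 (limma adjusted p = 0.00447), with a mean of 3.89 ± 3.54 FPKM (SD, n = 30) against 0.473 ± 0.371 (SD, n = 6). Hspa1a rose by 1.39 ± 0.48 (limma adjusted p = 0.0400), from 1.73 to 10.02 FPKM, and the sum of Hspa1a and Hspa1b by 1.79 (limma adjusted p = 0.00671). Dnajb1 differed by 1.01 ± 0.37 and did not pass (limma adjusted p = 0.0505). The constitutive Hspa8 rose by 1.41 ± 0.40, from a mean of 2.03 to 7.64 FPKM (limma adjusted p = 0.0153). Of the 9 members in the group of cytosolic HSP70 and HSP110 proteins 3 rose, namely Hspa8, Hspa4, a nucleotide exchange factor of the HSP110 branch, and Hspa2.

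The endoplasmic reticulum and mitochondrial groups made up 10 of the 21, with Hsp90b1 counted in the HSP90 group and not among them. In the endoplasmic reticulum group 6 of 11 tested genes rose. Dnajb11 (ERdj3), a BiP co-chaperone on chromosome 16, was in Neg at 0.963 and 12.6 FPKM in olfactory bulb, 1.10 and 0.196 in cortex and 0.508 and 0 in brainstem. In B it was between 8.35 and 17.2 FPKM and in C between 8.91 and 15.3, so that only olfactory bulb Neg 2 reached those ranges. It rose by 1.85 ± 0.36 (limma adjusted p = 0.00126). Dnajc3 (p58IPK), a BiP co-chaperone and inhibitor of eIF2α kinases, rose by 1.43 ± 0.34, from a mean of 1.44 to 5.94 FPKM. Hspa5 rose by 1.40 ± 0.39, from 7.62 to 28.3 FPKM (limma adjusted p = 0.0146). Among mitochondrial genes 4 of 9 rose. Hspe1 (HSP10), the lid of the mitochondrial chaperonin, was at 0 to 2.89 FPKM in Neg and rose by 1.67 ± 0.34 (limma adjusted p = 0.00172). Its barrel partner Hspd1 (HSP60) rose by 1.10 ± 0.32, Hspa9 by 1.59 ± 0.34 and Dnajc30 by 1.84 ± 0.66 (limma adjusted p = 0.0459).

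Both constitutive HSP90 genes rose too. Hsp90b1 was 19.0 ± 7.70 FPKM (SD, n = 6) in Neg and 61.99 ± 34.7 (SD, n = 30) in the lettered populations, a difference of 1.47 ± 0.37 (limma adjusted p = 0.00742). Hsp90ab1 was 33.9 ± 20.1 against 78.1 ± 34.6 FPKM, a difference of 1.26 ± 0.32 (limma adjusted p = 0.00931). Hsp90aa1, the HSP90 gene that heat shock induces, differed by 0.69 ± 0.31 and did not pass (limma adjusted p = 0.102). Hsph1 (HSP105) at 0.44, Dnaja1 at 0.55, Dnajb6 at 0.49, Hspb1 at 0.63 and the synaptic vesicle and clathrin-uncoating co-chaperones Dnajc5 at 0.31 and Dnajc6 at 0.23 did not pass either. None of the 4 tested vesicle and endosome DNAJC genes and none of the 10 tested genes of the remaining DNAJC group passed.

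These calls moved with the libraries of low FPKM sum. After rescaling each library to the same nuclear sum 1 member rose, Dnajb11, at 2.24 (limma adjusted p = 0.0261), and after quantile normalization 2, Dnajb11 at 1.21 and Hspe1 at 0.99. Of all genes 3.51% and 6.96% were called under those scalings. The median difference over all genes was 0.39 and 0.003, against 0.50 as deposited. It was 0.14 when rescaled to the median sum, where the added 1 keeps more weight. Fewer members were called without the 8 libraries under 5000 genes, where the median difference was 0.45 over members and 0.35 over all genes. Of the 6 Neg libraries 3 are among those 8, both brainstem ones included. That setting therefore compares Neg in olfactory bulb and cortex alone. The count was 6 without cortex Neg 2, which alone ended the calls of Hsp90ab1 (limma adjusted p = 0.0806) and Hsp90b1 (limma adjusted p = 0.0583). The call of Hspa1a ended with any of 12 libraries left out and that of Dnajc30 with any of 21. Hspa5, Hspa8 and Hspd1 each lost theirs with any of 3 Neg libraries left out, cortex Neg 2 among them, at limma adjusted p up to 0.105, 0.111 and 0.0950. Astrocyte markers were lower in Neg (1.39 to 3.73) than in the lettered populations (3.66 to 7.19), and their part in the result was not tested.

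**Figure D3:**
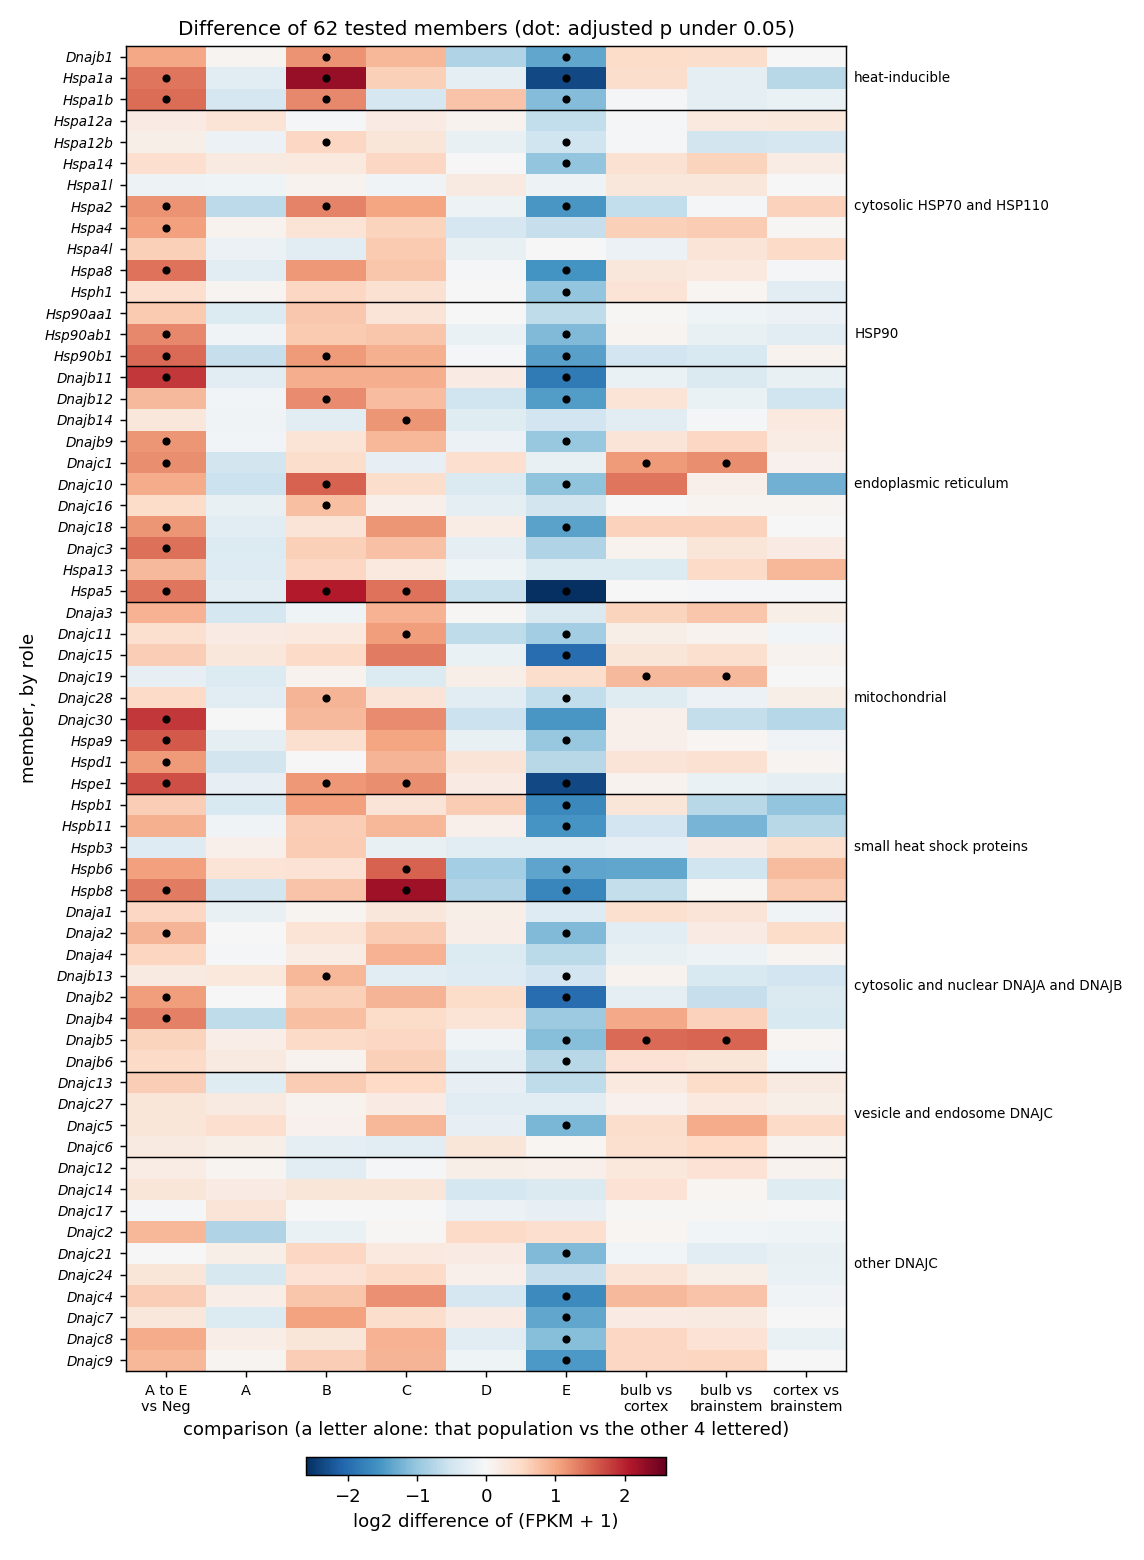
Fitted log2(FPKM + 1) difference of each of the 62 tested members (rows, grouped by role) in each comparison (columns), with colour for the size and direction and a dot where the adjusted p was under 0.05. Hspa1a and Hspa5 stand at 2.27 and 2.05 in B and at -2.34 and -2.59 in E.

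Each lettered population was next compared with the other lettered populations. These comparisons share libraries, since each population is among the others of the rest, so a low population raises the differences of its neighbours. In B 13 of 62 members rose and 0 fell, where 15.4% of all genes rose and 0.361% fell, and the median was 0.54 for members and 0.35 for all genes. All 3 inducible genes rose. Hspa1a was 25 ± 17.4 FPKM (SD, n = 6) in B against 6.28 ± 6.41 (SD, n = 24), a difference of 2.27 ± 0.49 (limma adjusted p = 0.00182). In cortex both B libraries were above all 8 other lettered libraries. In olfactory bulb and in brainstem 2 of 8 were above the lower B library. Hspa1b differed by 1.25 ± 0.34 (limma adjusted p = 0.0119), the sum of Hspa1a and Hspa1b by 1.99 (limma adjusted p = 0.00261) and Dnajb1 by 1.18 ± 0.38 (limma adjusted p = 0.0326). Dnajb1 lost its call without any of the first B libraries of the 3 regions, and Hspa1b without olfactory bulb B 1 (1.06, limma adjusted p = 0.0792).

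Of the cytosolic HSP70 and HSP110 group 2 of 9 genes rose in B. Hspa8 differed by 1.14 ± 0.41 (limma adjusted p = 0.0544), Hsp90aa1 by 0.70, Hsp90ab1 by 0.69, Hsph1 by 0.54 and Dnaja1 by 0.07, and none of them passed. Hspa2, an HSP70 gene best known from spermatogenesis, rose by 1.28 ± 0.40 and Hspa12b rose by 0.54 ± 0.17. In the endoplasmic reticulum group, which leaves out Hsp90b1, 4 of 11 tested members rose. Hspa5 (chr2:34771970-34777547, plus strand) was 64.3 and 53.7 FPKM in olfactory bulb B, 55.4 and 71.8 in cortex B and 90.3 and 31.9 in brainstem B. It averaged 61.2 ± 19.6 FPKM (SD, n = 6) against 20.02 ± 15.9 (SD, n = 24) in the other lettered populations, a difference of 2.05 ± 0.40 (limma adjusted p = 0.000571). Both B libraries exceeded all 8 others in olfactory bulb and in cortex, while in brainstem 2 C libraries stood above brainstem B 2. Dnajb12, a membrane-bound DNAJ protein of the endoplasmic reticulum, rose by 1.22 ± 0.36. Dnajc10 (ERdj5), a disulfide reductase, rose by 1.53 ± 0.43. Its B libraries stood at 16.9, 15.4, 3.60, 5.02, 3.36 and 104 FPKM, and without brainstem B 2, the last, the difference was 0.76 and not called (limma adjusted p = 0.153). Hsp90b1 rose by 1.11 ± 0.37, to 99.6 from 52.6 FPKM, and Hspe1 by 1.13 ± 0.35. Leaving out 1 B library ended the call of Dnajc10 also for olfactory bulb B 1 and cortex B 2, that of Dnajb12 for olfactory bulb B 2 and both cortex libraries, and that of Hspe1 for library 2 of each region. Hspa2 lost its call without any of 4 B libraries and Hsp90b1 without any of 11 libraries.

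Microglia markers and immediate early genes moved with B. The mean over 10 microglia markers was 5.41 to 6.48 in B, above the range of every other population (0.635 to 5.22), and no marker was at 0 in a B library. The 11 immediate early genes, which dissociation and activity induce, were at 4.85 to 6.96 in B and 0.769 to 4.83 elsewhere. Endothelial markers, 6 genes, were at 2.32 to 3.15 in B, within reach of D (1.502 to 3.28) and C (1.31 to 2.98). Astrocyte markers in B, at 5.57 to 7.19, overlapped those of C (6.17 to 7.08). The part of these cell types and of the dissociation response in the B values was not tested. Under rescaling 1 member rose in B, Hspa5 at 1.65 (limma adjusted p = 0.00630), and under quantile normalization 2, Hspa5 at 1.47 and Hspa1a at 1.64 (limma adjusted p = 0.0475). Of all genes 4.71% and 5.95% were called in B under these scalings. Hspa5 was called in B under each of the 47 alternatives run, those leaving out 1 library included, whereas Hspa1a missed the threshold at 2.56 under rescaling (limma adjusted p = 0.110) and at 1.75 with a term for the number series (limma adjusted p = 0.0882). That term was estimated only from cortex A, brainstem A and brainstem B, the groups with libraries of both series. Within the first number series, which sets B against A and C alone, Hspa1a differed by 1.86 and Hspa5 by 1.33. The median there was 0.22 over members and 0.14 over all genes.

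**Figure D4:**
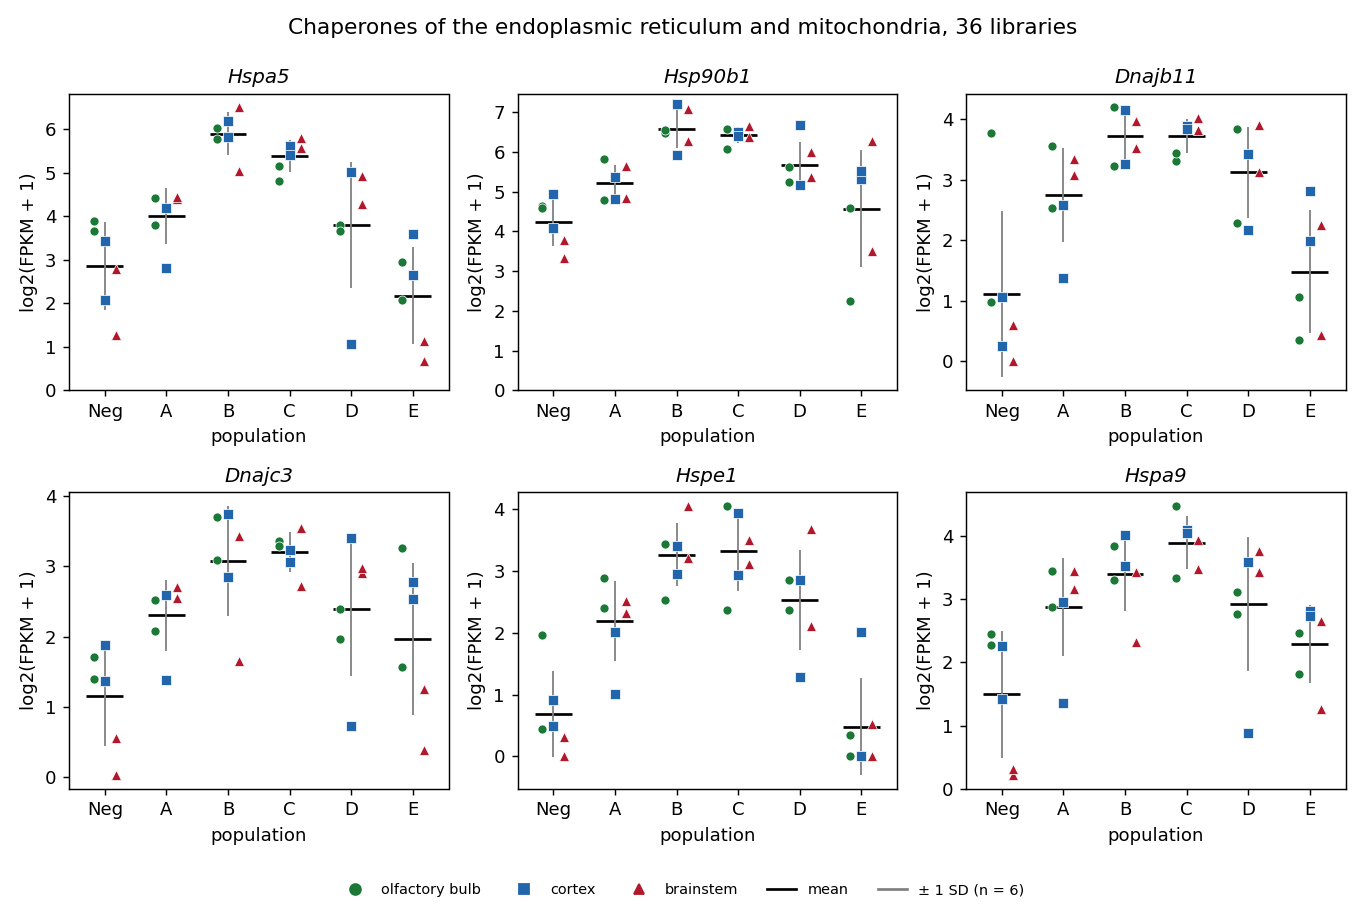
Points give log2(FPKM + 1) of Hspa5, Hsp90b1, Dnajb11, Dnajc3, Hspe1 and Hspa9 in each of the 36 libraries by population, with colour and shape for the region, a black line at the mean of the 6 libraries and grey bars of 1 SD. Hspa5 runs from 31.9 to 90.3 FPKM in B and from 0.592 to 11.01 FPKM in E.

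In C 2 small heat shock proteins had the largest called differences, and no inducible gene was called. In total 6 of 62 members rose and 0 fell, where 7.51% of all genes rose and 0.00736% fell, with a median of 0.63 for members and 0.39 for all genes. Hspb8 (HSP22), which acts with Bag3 in selective autophagy, was at 8.02 and 3.95 FPKM in olfactory bulb C, 16.5 and 12.3 in cortex C and 14.99 and 7.79 in brainstem C. In D it was at 26.3 FPKM in cortex D 1 and at 0 to 0.968 in the other D libraries, and in E at 0 to 1.66. In B it was at 1.77 and 7.83 FPKM in olfactory bulb, 7.64 and 8.07 in cortex and 3.28 and 0.444 in brainstem, and in A at 0 to 2.94. Every C library was thus above every A and E library and every D library except cortex D 1, while 3 B libraries lay within the C range. The difference was 2.20 ± 0.43, from 2.86 to 10.6 FPKM (limma adjusted p = 0.00968), and 2.05 without olfactory bulb C 1 (limma adjusted p = 0.0745). Hspb6 (HSP20) was at 3.34 and 6.82 FPKM in olfactory bulb C, 15.5 and 17.8 in cortex C and 33.5 and 13.4 in brainstem C. It differed by 1.53 ± 0.48 (limma adjusted p = 0.0479), close to the threshold, and the call ended with any of 26 libraries left out, all of C among them. In brainstem both C libraries were above all 8 others for Hspb6 and for Hspb8. The small heat shock protein group was formed by symbol and holds every Hspb gene, Hspb11 included. It had 2 of 5 tested genes called in C and a median of 0.85, mitochondrial genes 2 of 9 and a median of 1.02.

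The other 4 calls in C were organelle genes. Hspa5 stood at 26.9 to 54.7 FPKM and differed by 1.42 ± 0.40 (limma adjusted p = 0.0326). Hspe1 differed by 1.20 ± 0.35, Dnajc11, a protein of the mitochondrial contact site complex, by 1.10 ± 0.27 (limma adjusted p = 0.0200) and Dnajb14 of the endoplasmic reticulum by 1.15 ± 0.35. Hspa9 at 1.02 ± 0.34 (limma adjusted p = 0.0598) and Hspd1 at 0.88 ± 0.32 (limma adjusted p = 0.0800) did not pass. The call of Hspa5 in C ended without any 1 of the 6 C libraries (limma adjusted p up to 0.152), that of Hspe1 without any of 8 libraries, that of Dnajb14 without any of 14 and that of Dnajc11 without any of 3. Astrocyte markers ran from 6.17 to 7.08 in C and microglia markers from 2.70 to 5.22, and their part in the result was not tested. All 6 calls were lost when libraries were rescaled or quantile normalized, and within the first number series, where Hspb8 differed by 1.29 (limma adjusted p = 0.227) and Hspa5 by 0.20. Without olfactory bulb C 1 the count was 0, and without cortex D 1 it was 21.

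Many members were low in E. In E 36 of 62 members fell, or 58.1%, and 0 rose, where 42.5% of all genes fell and 0.103% rose. The medians were -0.99 for members and -0.66 for all genes. All 3 inducible genes were called lower. Hspa1a differed by -2.34 ± 0.49, at 1.25 ± 2.03 FPKM (SD, n = 6) in E and 12.2 ± 12.4 (SD, n = 24) in the others (limma adjusted p = 0.00096). Dnajb1 differed by -1.35 ± 0.38 and Hspa1b by -1.13 ± 0.34 (limma adjusted p = 0.0110). In olfactory bulb both E libraries were below all 8 others for each of the 3 genes. In cortex Hspa1b of E, at 2.51 and 2.59 FPKM, and Dnajb1 of E, at 1.55 and 5.17 FPKM, lay within the ranges of the others. Hspa1b lost its call under rescaling (limma adjusted p = 0.299) and under quantile normalization (limma adjusted p = 0.823). Dnajb1 lost its call under both as well (limma adjusted p = 0.250 and 0.519). Hspa1a kept its call under rescaling (limma adjusted p = 0.0238) but not under quantile normalization (limma adjusted p = 0.0841).

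The median difference in E was -1.54 over the small heat shock protein group, -1.35 over the inducible genes, -0.99 over the endoplasmic reticulum group and -0.90 over the mitochondrial group. Of single members, Hspa5, Hspe1 and Hspa1a had the largest differences. Hspa5 in E was at 3.19 and 6.72 FPKM in olfactory bulb, 5.24 and 11.01 in cortex and 0.592 and 1.18 in brainstem. It differed by -2.59 ± 0.40 (limma adjusted p = 6.66e-05), and in olfactory bulb and brainstem both E libraries were below all 8 others. Hspe1 in E was at 0 and 0.265 FPKM in olfactory bulb, 0 and 3.05 in cortex and 0 and 0.435 in brainstem. It differed by -2.34 ± 0.35 (limma adjusted p = 4.93e-05), with means of 0.624 and 7.07 FPKM. Dnajb11 differed by -1.84 ± 0.37 and Dnajc15, a DNAJ protein of the mitochondrial inner membrane, by -1.97 ± 0.49. In the endoplasmic reticulum group 6 of 11 tested genes fell, and in the mitochondrial group 5 of 9.

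Small heat shock proteins and cytosolic genes fell as well. In the small heat shock protein group, formed by the Hspb symbol, 4 of 5 tested genes fell. Among them were Hspb1 (HSP27) at -1.68 ± 0.39, from 4.18 to 0.457 FPKM, and Hspb8 at -1.69 ± 0.43. Dnajb2, a neuronal DNAJ protein, fell by 1.97 and Hspa8 by 1.55 on the log2 scale. Hsph1 fell by 1.02, Dnajc5 by 1.19 and Dnajb6 by 0.72. Both Hsp90b1 (-1.41 ± 0.37) and Hsp90ab1 (-1.15 ± 0.33) fell, the latter from 87.8 to 39.5 FPKM. By contrast Hsp90aa1 at -0.67, Hspd1 at -0.72, Dnajc3 at -0.78, Dnaja1 at -0.33 and Dnajc6 at 0.05 did not pass. Dnajc6 (auxilin), which uncoats clathrin vesicles in neurons, had medians from 4.09 FPKM in C to 6.21 FPKM in Neg, with 5.31 FPKM in E.

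The number of E calls also changed with a term for the number series, with scaling and with depth. With a term for the number series 3 members were called, where 0.994% of all genes were. The second series holds all E and D libraries, so that term was estimated only from cortex A, brainstem A and brainstem B. Whether E depends on the series cannot be told from it. Fewer members were also called without the libraries under 5000 genes (median -0.64 over members, -0.52 over all genes). That setting leaves no brainstem E library and compares olfactory bulb and cortex alone. After rescaling to the same sum 15 members fell, where 22.1% of all genes were called. After quantile normalization 2 fell, Hspa5 at -1.69 (limma adjusted p = 0.00131) and Hspe1 at -1.43 (limma adjusted p = 0.00690), and 3 rose, Dnajc19, Dnajc6 at 0.91 and Dnajc2 at 1.40. The median over all genes was -0.98 under rescaling and 0.06 under quantile normalization, against -0.66 as deposited. Without the libraries of low depth fewer members were called (median -0.83 over members, -0.58 over all genes). Leaving out 1 E library ended the call of Hspa1b (brainstem E 2, limma adjusted p = 0.0689), of Hsp90b1 (olfactory bulb E 1 or brainstem E 1), of Hspa9 and Hsph1 (olfactory bulb E 2, cortex E 1 or brainstem E 1) and of Dnajc5 (olfactory bulb E 1, cortex E 1 or brainstem E 2), and that of Dnajb6 ended with any of 19 libraries. Microglia markers stood at 0.635 to 1.99 in E with up to 6 of 10 at 0, immediate early genes at 0.769 to 2.16 with up to 7 of 11 at 0, and neuron markers at 1.61 to 3.82. Astrocyte markers were at 3.66 to 5.13 in E, below those of B (5.57 to 7.19) and C (6.17 to 7.08). Oligodendrocyte markers were at 3.58 to 6.44 in E. The part of these marker lists in the result was not tested. Hspe1 kept its call in E in each of the 46 alternatives run, and Hspa5 in all but the term for the number series (-2.01, limma adjusted p = 0.0778).

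A and D showed no called member. In A 0 of 62 members were called by limma, where 0% of all genes were, with 2 members and 480 genes at an unadjusted p below 0.05. The smallest p belonged to Dnajc17 (0.34), Dnajc2 (-0.79) and Dnajc1 (-0.49), all with a limma adjusted p of 0.999. In D 0 were called, where 0.103% of all genes were called in either direction. An unadjusted p below 0.05 was found for 3 members and 1196 of all 13578 genes. The 3 members were Dnajc11 at -0.66 (limma adjusted p = 0.482), Hspa1b at 0.75 (limma adjusted p = 0.534) and Dnajb1 at -0.78 (limma adjusted p = 0.564). In D the inducible genes Hspa1b and Dnajb1 thus had opposite signs. Cortex D 2 held 9.17 FPKM of Hspa1b but 0.0617 FPKM of Hspa1a and 0 of Dnajb1, and it is among the libraries under 5000 genes.

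Inducible levels were also set against a constitutive partner within each library. The log2 ratio of Hspa1a plus Hspa1b plus 1 to Hspa8 plus 1 had a median of 1.10 in B, 1.07 in D, 0.84 in A, 0.65 in C, 0.11 in Neg and -0.03 in E. The ranges overlapped throughout, from -0.05 to 2.80 in B and from -0.37 to 0.70 in Neg. By region the medians were 0.94 in brainstem, 0.65 in olfactory bulb and 0.35 in cortex. The log2 ratio of Dnajb1 plus 1 to Dnaja2 plus 1, a constitutive DNAJ protein, had a median of 0.52 in B, above -0.15 in A, -0.45 in E, -0.46 in C, -0.49 in Neg and -1.07 in D. No test was applied to these ratios.

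Regions differed in few members. Over the lettered populations 3 of 62 members were higher in olfactory bulb than in cortex, where 3.08% of all genes were, and 3 were higher than in brainstem, where 4.19% were. They were Dnajb5, Dnajc1 and Dnajc19 in both cases. Dnajb5 (chr4:42949814-42959425, plus strand), a cytosolic DNAJ protein, was at 1.90 to 13.1 FPKM in olfactory bulb (median 5.27, n = 10), at 0 to 6.29 in cortex (median 1.68) and at 0 to 4.64 in brainstem (median 1.09). It differed by 1.46 ± 0.31 from cortex (limma adjusted p = 0.00352) and by 1.52 ± 0.31 from brainstem (limma adjusted p = 0.00245), although the ranges overlapped. In Neg it was at 7.64 and 3.69 FPKM in olfactory bulb and 0 to 0.978 in the other regions. The Neg libraries were left out of the regional means but entered the shared estimate of the spread. Both calls were lost when only the transcript with the highest mean was taken (0.54 and 0.53), and that against cortex in the first number series (0.92, limma adjusted p = 0.114) and without libraries under 5000 genes (1.24, limma adjusted p = 0.0511).

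Dnajc1 (chr2:18195654-18392830, minus strand), a DNAJ protein of the endoplasmic reticulum membrane, was at 4.76 to 16.9 FPKM in olfactory bulb, 0.669 to 7.08 in cortex and 0.163 to 7.02 in brainstem. Its differences were 1.10 ± 0.28 (limma adjusted p = 0.0181) and 1.20 ± 0.28 (limma adjusted p = 0.00768). Both calls were lost under rescaling (limma adjusted p = 0.296 and 0.107), under quantile normalization (0.0851 and 0.104), with a pseudocount of 0.1 (0.176 and 0.0631) and with the transcript of the highest mean (0.163 and 0.311), and that against brainstem in the first number series (0.0769). Dnajc19, a DNAJ protein of the mitochondrial inner membrane, was listed at 0 in 30 libraries, among them all of cortex and brainstem. In olfactory bulb it was 1.17 and 2.69 FPKM in Neg, 3.46 in B 2, 4.13 in D 2 and 1.48 and 4.74 in E, and 0 in the other olfactory bulb libraries. Its call, with limma adjusted p of 0.0430 and 0.0364, rests on these values against groups at 0 and ended with any of 27 libraries left out against cortex and any of 15 against brainstem. That of Dnajc1 against cortex ended without cortex A 2, cortex B 1 or olfactory bulb B 2 (limma adjusted p up to 0.0539). Without the 2 libraries that carried olfactory bulb genes Dnajb5 differed by 1.58 and 1.67 and Dnajc1 by 1.10 and 1.22, all called, and Dnajc19 had limma adjusted p of 0.0548 and 0.0444.

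**Figure D5:**
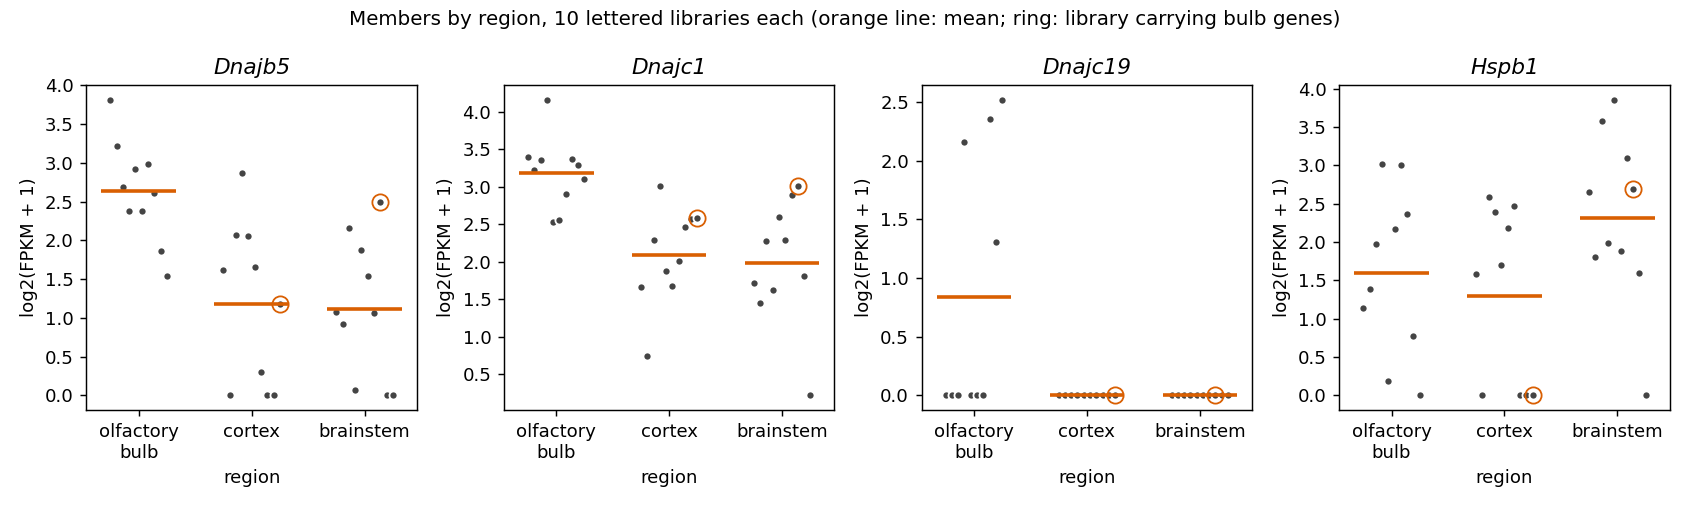
Points give log2(FPKM + 1) of Dnajb5, Dnajc1, Dnajc19 and Hspb1 in the 10 lettered libraries of each region, with an orange line at the mean and a ring around the 2 libraries that carried olfactory bulb genes. Dnajc19 is at 0 in every cortex and brainstem library, and Dnajb5 and Dnajc1 overlap between regions.

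None of the 3 inducible genes was called between regions. Median Hspa1a was 6.98 FPKM in olfactory bulb, 5.01 in cortex and 8.13 in brainstem, with ranges of 0.193 to 30.8, 0 to 19.1 and 0 to 57.8. Median Dnajb1 was 4.09, 3.60 and 3.70 FPKM and median Hspa8 7.88, 5.36 and 6.44 FPKM in the same order. Between cortex and brainstem 0 members were called by limma, where 1.75% of all genes were called in either direction. At an unadjusted p below 0.05 stood 5 members and 1520 of all 13578 genes. The 3 members with the smallest p were Dnajc10 at -1.25 (limma adjusted p = 0.160), Hspa13 at 0.87 (limma adjusted p = 0.219) and Hspb1 at -1.02 (limma adjusted p = 0.238). A test of whether population differences depended on the region called 0 members, where 0.11% of all genes were called, with 3 members at an unadjusted p below 0.05. They were Dnaja2 (limma adjusted p = 0.622), Dnajc24 (limma adjusted p = 0.709) and Dnajb13 (limma adjusted p = 0.716).

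Partners of the chaperones were counted in 3 lists outside the set. Among 25 cytosolic partners and heat shock factors 9 (36%) rose in the lettered populations against Neg, where 20.2% of all genes did, including the HSP90 immunophilin Fkbp4 at 2.09, the HSP70 nucleotide exchange factor Bag3 at 1.83 and the small heat shock protein Cryab at 1.59. In B 3 (12%) rose, against 15.4% of all genes, the ubiquitin ligase Stub1 (CHIP) at 1.35, Bag6 at 1.24 and Fkbp5 at 0.79, and in C 2 (8%), against 7.51%, Hikeshi, the importer of HSP70 into the nucleus, at 1.86 and Stub1 at 1.35. In E 14 (56%) fell, against 42.5%, among them Bag6 at -2.23, Bag3 at -1.81 and Hsf1, the heat shock factor itself, at -1.68. The chaperonin CCT, which folds actin and tubulin, had 4 of 8 subunits (50%) higher in the lettered populations than in Neg, with Cct7 at 1.51, Cct3 at 1.30 and Cct5 at 1.28. In B 2 (25%) rose, Cct7 at 1.53 and Cct5 at 1.33, in C 0, and in E 5 (62.5%) fell, with Cct7 at -2.07, Cct5 at -1.89 and Cct2 at -1.73.

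In the endoplasmic reticulum list of 15 folding and unfolded protein response genes 9 (60%) rose against Neg, where 20.2% of all genes did, among them the disulfide isomerase Pdia3 at 2.10 and the lectin chaperones Calr at 1.78 and Canx at 1.49. In B 7 (46.7%) rose, against 15.4% of all genes, with Herpud1, which acts in the degradation of misfolded proteins, at 1.84 (limma adjusted p = 0.000887), Pdia4 at 1.51 and Pdia6 at 1.45. In C 1 (6.67%) rose, against 7.51%, Sdf2l1 at 1.20, and in E 12 (80%) fell, against 42.5%, with the transcription factor Atf4 at -2.13, Calr at -1.90 and Pdia4 at -1.73. The median over its 15 genes was 1.15 against Neg, 1.17 in B, 0.74 in C and -1.39 in E. Over all genes it was 0.50, 0.35, 0.39 and -0.66 in the same order, each nearer to 0. Values of all 3 lists are as deposited. They are not given for rescaled or quantile normalized libraries, where fewer members were called against Neg and in B, C and E. No gene of the 3 lists was called in A, in D, between regions or in the interaction.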

How the data were processed

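Per the labels' protocols, RNA was amplified from random and oligo dT primers, prepared with a DNA library kit that does not mark strand, and sequenced on an Illumina HiSeq. The submitters' processing notes name bcl2fastq 1.8.3, TopHat, Cufflinks and mm10, with no version found here for TopHat and Cufflinks. Each deposited table, 1 per library, gives FPKM with its interval and coverage (a signal per base) for 63241 transcripts, per the file headers. Transcripts were assigned to GENCODE vM21 genes (GRCm38) by overlap of their whole genomic span with that of annotated transcripts, without regard to exons. The score, shared over joint span, had to be at least 0.5 and 0.1 above the next gene. Where several genes lay within 0.1, the only protein-coding gene among them was taken. This placed 52543 transcripts (83.1%), and FPKM was summed per gene. Relative depth was taken from the ratio of the deposited coverage to FPKM. Intervals near 10 FPKM had a half-width of 10.1% to 16.6%, but 63.0% in brainstem E 1 and 34.2% in olfactory bulb E 1.

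Values were analysed as log2(FPKM + 1) with limma 3.58.1 in R 4.3.3, with 18 group means and a trend in the variance prior, tested on simulated data. Alternatives covered scaling, pseudocount, filter, transcript choice, the number series, libraries left out and the sum of Hspa1a and Hspa1b. The named genes were 18 canonical members, the called members with the largest differences (up to 8 per direction and comparison), the 3 with the smallest p where fewer than 3 were called, all members under the filter, and up to 3 called genes of each partner list. Names outside that rule (Hspa2 and Hspa4 against Neg, Hspa12b in B, Dnajc2 and Dnajc19 in E, and Dnajb4 for its level) were chosen after their values were seen. The members and lists were chosen with earlier results of these data known. Members' shared windows were counted on the longest protein-coding GENCODE transcript, and promoters are those of RefSeq.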

Additional observations from a re-analysis of the deposited data

Results flagged for a closer look

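Within each population 35 members were examined for 1 library far from the other 5, by the gap to the nearest library as a share of the whole range. Of 210 sets 26 passed Dixon's 95% limit, where about 10.5 would pass if the sets were independent and normally distributed. Sets of 1 population share their libraries. For Dnajc17 and Dnajc19 in B and D the other 5 libraries were at 0, which fixes the share at 1. The 2 numbers can therefore not be compared strictly. Libraries of a population come from 3 regions, so a gap may be regional.

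Libraries that were far below the rest often had few genes. In cortex D 2 Hspa5 was at 1.11 FPKM, Hspa8 at 0.105, Hspa9 at 0.839, and Hspb1 and Dnajc10 at 0. In cortex A 2 Hsp90aa1 was at 3.52 FPKM, Hspa9 at 1.57 and Dnajc10 at 0.0817. Both libraries held under 5000 genes at 1 FPKM, and the part of this in the low values was not tested. Other low libraries were brainstem B 2 for Dnajb5 (0.0501 FPKM) and Dnajc5 (0.792), olfactory bulb C 1 for Hspa1a (1.63), olfactory bulb C 2 for Hspa2 (3.40) and olfactory bulb A 2 for Hspb6 (0.841).

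High libraries were of several populations. In olfactory bulb Neg 2 Dnajb11 stood at 12.6 FPKM and Dnajb14 at 3.09. Hspb8 was at 26.3 FPKM in cortex D 1, 2.09 in cortex Neg 1 and 1.66 in brainstem E 1. Hspe1 was at 3.05 FPKM in cortex E 2, one of the 2 libraries that carried olfactory bulb genes. Dnajc19 was at 3.46 FPKM in olfactory bulb B 2 and 4.13 in olfactory bulb D 2. Dnajb12 was at 4.51 FPKM in olfactory bulb E 2, Dnajc17 at 1.18 in cortex B 2 and at 0.258 in brainstem D 1, Dnajc30 at 4.24 in cortex Neg 2 and Hsph1 at 11.3 in olfactory bulb A 1.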

How the results depend on the processing

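No paired analysis was possible because the labels give no replicate numbers. Counts of called members moved by over 1.5 times as follows. Against Neg (21 as reported) they were 1 when rescaled to a sum of 1000000, 2 with quantile normalization, 11 with the transcript of the highest mean, 49 in the first number series alone, 1 without libraries under 5000 genes and 1 when rescaled to the median sum. Of all genes 20.4% were called against Neg as reported, 3.51% rescaled and 6.96% with quantile normalization. With the transcript of the highest mean 10.6% were, and at the median sum 4.18%. In the first series alone the median difference was 1.12 over members and 0.83 over all genes, so genes in general shifted too. Without libraries under 5000 genes the medians were 0.45 and 0.35. In B (13, 15.8%) the counts of called members were 1 rescaled (4.71%), 2 with quantile normalization (5.95%) and 6 with pseudocount 0.1 (9.8%). They were 3 with a number-series term (5.37%) and 2 at the median sum (6.76%). Fewer were called in the first series alone (medians 0.22 and 0.14) and without libraries under 5000 genes (0.27 and 0.18). In C (6, 7.52%) they were 0 rescaled (0.00736%), 0 with quantile normalization (0.0442%) and 1 with pseudocount 0.1 (1.01%). They were 0 with the series term (0%) and 0 at the median sum (0.0442%). Fewer were called in the first series (medians 0.16 and 0.09), without libraries under 5000 genes (0.35 and 0.24) and without the libraries of low depth (0.58 and 0.37). In E (36, 42.6%) they were 15 rescaled (22.1%), 5 with quantile normalization (7.92%), 3 with the series term (0.994%) and 10 at the median sum (10.4%). Fewer were called without libraries under 5000 genes (medians -0.64 and -0.52) and without those of low depth (-0.83 and -0.58). In A (0, 0%) 1 was called with no filter (0.0574%). Olfactory bulb against brainstem (3, 5.19%) gave fewer in the first series (medians 0.05 and 0.09). Cortex against brainstem (0, 1.75%) gave more without libraries under 5000 genes (medians 0.07 and 0.11).

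With 1 library left out, counts ranged from 6 to 30 against Neg (lowest without cortex Neg 2, highest without cortex D 2), 0 to 0 in A, 6 to 20 in B (lowest without olfactory bulb B 1, highest without cortex D 1), 0 to 21 in C, 0 to 1 in D and 25 to 43 in E (lowest without olfactory bulb E 1, highest without cortex D 2). They ranged from 1 to 4 for olfactory bulb against cortex (lowest without cortex A 2), 2 to 5 against brainstem, 0 to 1 for cortex against brainstem and 0 to 0 for the interaction. A group left with 1 library was assumed to vary like the others. The share of all genes called was not set beside these leave-one-out counts. Signs turned for Dnajc1 in A (0.29 with the transcript of the highest mean), Hspa9 in E (0.070 rescaled, 0.064 at the median sum), Hsp90ab1 in E (0.041 and 0.040) and Dnajb6 in E (0.042 with quantile normalization). The median HSP70 ratio in C was 1.95 with the transcript of the highest mean (0.65 as reported), and the median DNAJ ratio in Neg -1.15 with pseudocount 0.1 (-0.49). Causes were not tested. D and E have no value in the first series alone, since all their libraries are in the second. The median sum, the low-depth libraries and the summed Hspa1a and Hspa1b were chosen after seeing the data. Depth is known only in relative terms, and levels under 1 FPKM in brainstem E 1 and olfactory bulb E 1 are the least certain.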
